A study of Mus musculus with 6 samples.

Results

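Transcripts of 6 genes of growth control, the cell cycle and nucleotide synthesis were followed in mouse splenic natural killer (NK) cells with and without oleic acid (OA), a monounsaturated fatty acid. The genes were Myc, Mxd1, Rrm1, Rrm2, Cdc6 and Ccnd3. They were found by gene symbol in the deposited table, which held all 6 among its 559 genes. The control group was purified NK cells of C57BL/6 spleen kept without OA, and the OA group was such cells kept with 0.2 mM OA for 36 h, with 3 RNA-seq libraries in each group. The labels give no age, no carrier for the OA and no culture cytokine, and they state that the treatment was carried out once. They do not say whether the libraries came from separate mice or cultures, so the p-values measure the spread between these libraries, which may be technical. The comparison asks which transcripts of NK cells OA exposure raises or lowers.

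MYC is a transcription factor that, bound to its partner MAX, drives genes of growth, metabolism and division, and lymphocytes raise it when cytokines activate them. MXD1 competes with MYC for MAX and represses the same kind of target. Cyclin D3 with its kinases CDK4 and CDK6 moves a cell through G1, CDC6 loads the replicative helicase onto origins before S phase, and ribonucleotide reductase, built of the RRM1 and RRM2 subunits, makes the deoxyribonucleotides for DNA synthesis.

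All 6 transcripts fell in the OA libraries, by small amounts. Rrm2 and Cdc6 fell the most, to 80.0% and 79.7% of their control level, Ccnd3, Myc and Mxd1 fell to between 85.5% and 85.7%, and Rrm1 fell to 88.9%. In limma on log2(TPM + 1), where TPM is a transcript's length-corrected share of its library on a fixed scale, 6 of 6 passed a Benjamini-Hochberg adjusted p under 0.05. Of all 559 genes tested, 224 were called lower by the same rule, a background of 40.1%; counting both directions, 76.0% were called. The table holds only genes with an authors' Q value under 0.05 on these same libraries, so each member had already passed one test of this contrast. Passing limma here is therefore a description and not independent support. In every member the 3 OA libraries lay below the 3 control libraries, as they did for 48.5% of the listed genes. In 93.6% of the table the groups did not overlap in either direction.

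Calls were lost when single libraries were left out, for the members as for the whole table. A fit on fewer libraries has less power, so a lost call does not by itself mean a smaller fall. Of the 6 members, limma called 0 when control replicate 1, 2 or 3 or OA replicate 2 was left out (3, 2, 2 and 4 members at an unadjusted p under 0.05). Under those 4 omissions it called 0, 13, 30 and 0 of the 559 genes lower. Without OA replicate 1 it called 4 members and 187 genes of the table lower, and without OA replicate 3 it called 3 members and 138 genes. With the libraries scaled to equal medians it called 0 members (3 at an unadjusted p under 0.05) and 82 genes of the table lower. The members' log2 fold changes were no smaller under that scaling, at −0.23 for Myc, −0.33 for Rrm2 and −0.33 for Cdc6. Each member's log2 fall grew without control replicate 1, OA replicate 1 or OA replicate 2 (Myc −0.25, −0.25 and −0.26). Each shrank without control replicate 3 or OA replicate 3 (Myc −0.18 and −0.16). Without control replicate 2 the fall shrank for Mxd1 and grew for the other members.

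**Figure D1:**
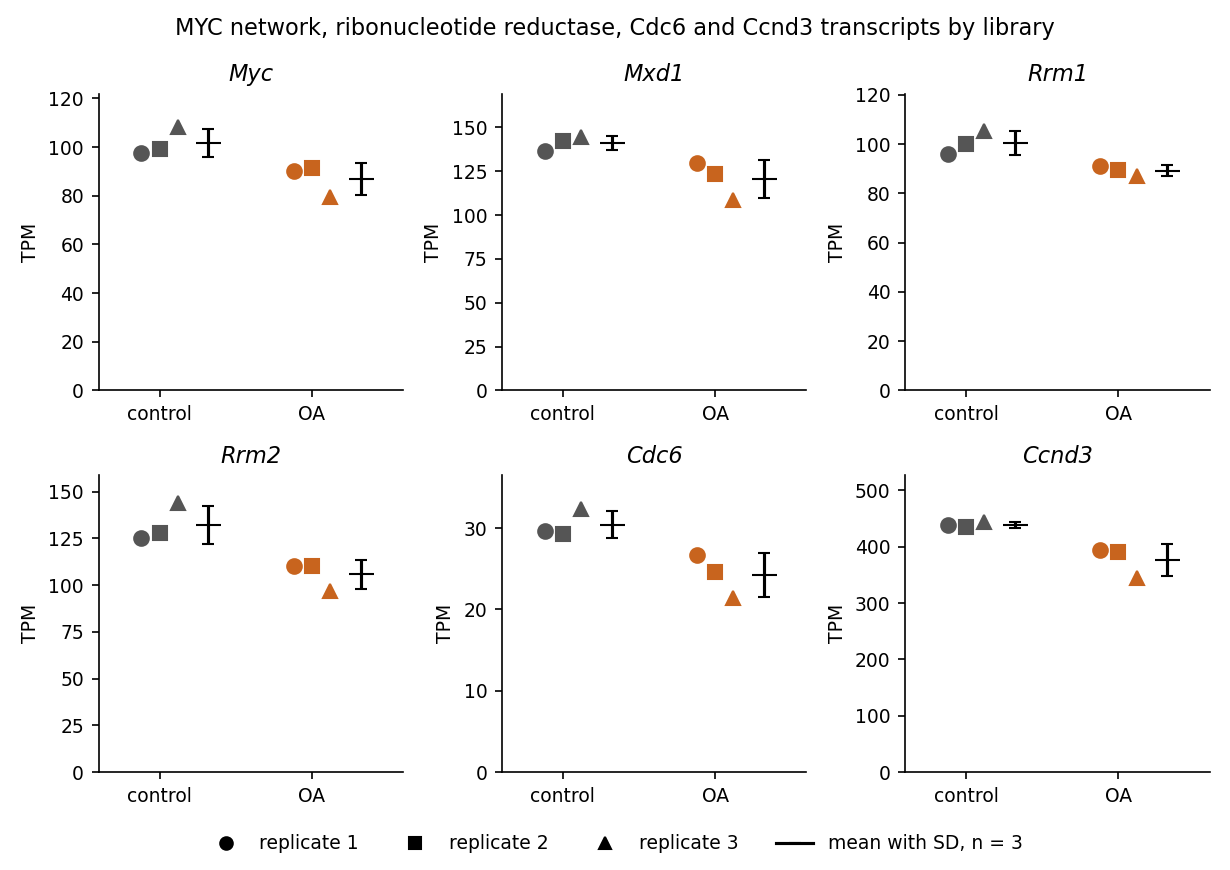
TPM of Myc, Mxd1, Rrm1, Rrm2, Cdc6 and Ccnd3 in each control (grey) and OA (orange) library, with symbols for the replicate number and the group mean with SD (n = 3); each vertical axis starts at 0. The OA libraries lie below the control libraries in all 6 panels, and OA replicate 3 is the lowest point in each.

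Myc, the gene of the transcription factor, lies on chromosome 15 at 61985341 to 61990361 (plus strand; coordinates here are RefSeq's on GRCm38.p6, the assembly known as mm10, which the submitters' processing notes name). Control replicates 1, 2 and 3 held 97.6, 99.3 and 108 TPM of Myc, against 90.0, 91.6 and 79.4 TPM in the OA replicates of the same numbers. OA replicates 1 and 2 were close to each other and OA replicate 3 was lower; 6.05 TPM separated the lowest control library from the highest OA library, less than the range of 10.5 TPM among the controls. The group means were 101.7 ± 5.65 and 87.0 ± 6.62 TPM (SD, n = 3 per group), a log2 fold change of −0.22 (SE 0.0791, adjusted p = 0.0465, limma).

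Mxd1, the gene of the MYC antagonist, lies on chromosome 6 at 86647044 to 86669234 (minus strand). In replicate order, 137, 142 and 145 TPM of Mxd1 were measured in control and 129.8, 124 and 109 TPM in OA. The controls were tight and the OA libraries spread, with ranges of 7.73 and 21.2 TPM. Its log2 fold change was −0.23 (SE 0.0801, adjusted p = 0.0462, limma).

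The balance of activator to antagonist did not separate the groups. The ratio of Myc to Mxd1 TPM, which does not depend on how a library is scaled, was 0.713, 0.699 and 0.748 in the control libraries and 0.694, 0.741 and 0.732 in the OA libraries. The groups overlapped, and the mean log2 ratio was −0.47 ± 0.0502 in control and −0.47 ± 0.0506 in OA (SD, n = 3 per group; difference 0.0039, p = 1, exact permutation test, two-sided). With 3 libraries against 3 the smallest p this test can give is 0.1. A p of this size does not show that the ratio was equal, and the difference took either sign when single libraries were left out.

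The promoter windows of the members are described because all 6 transcripts were lower in OA, as were 48.7% of the listed genes by sign. RefSeq windows on GRCm38.p6, from 250 bases before to 50 bases after a start site, were matched for 5 of the 6 genes, with 2 windows for Ccnd3. Both strands were searched for the E-box CACGTG, bound by MYC-MAX and MXD-MAX dimers, for TTTCGCG and TTTGGCG (E2F), for CCAAT (the NF-Y box) and for TTTGAA (the cell cycle homology region, CHR); where 2 motifs overlap, both count. CCAAT was found in 4 of the 6 windows, against 37.4% of 32851 windows of this length. By gene it was found in 4 of 5, with 2 windows searched for Ccnd3. G and C made up 47.0% of the Rrm1 window and 59.3% to 76.7% of the others, against a median of 52.7% over all windows. The shares were not matched for this. The windows of Mxd1, Rrm1 and Rrm2 are printed below with CCAAT in capitals. The Mxd1 window (chr6:86669110-86669409, minus strand) held 4 copies, the Rrm1 window (chr7:102441445-102441744, plus strand) 2 and the Rrm2 window (chr12:24708004-24708303, plus strand) 1; 11.7% of all windows hold at least 2.
Mxd1: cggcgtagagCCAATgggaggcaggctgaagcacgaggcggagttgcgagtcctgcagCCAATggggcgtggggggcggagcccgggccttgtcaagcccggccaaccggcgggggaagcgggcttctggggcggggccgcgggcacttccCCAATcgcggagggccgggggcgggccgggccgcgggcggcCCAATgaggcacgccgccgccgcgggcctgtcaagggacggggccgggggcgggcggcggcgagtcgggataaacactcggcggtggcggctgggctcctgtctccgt
Rrm1: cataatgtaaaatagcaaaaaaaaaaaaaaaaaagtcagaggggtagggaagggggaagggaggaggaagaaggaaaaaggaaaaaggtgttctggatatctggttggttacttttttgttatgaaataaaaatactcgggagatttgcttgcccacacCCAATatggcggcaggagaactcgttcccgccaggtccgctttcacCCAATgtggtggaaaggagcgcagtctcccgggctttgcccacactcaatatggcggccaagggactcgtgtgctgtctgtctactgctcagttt
Rrm2: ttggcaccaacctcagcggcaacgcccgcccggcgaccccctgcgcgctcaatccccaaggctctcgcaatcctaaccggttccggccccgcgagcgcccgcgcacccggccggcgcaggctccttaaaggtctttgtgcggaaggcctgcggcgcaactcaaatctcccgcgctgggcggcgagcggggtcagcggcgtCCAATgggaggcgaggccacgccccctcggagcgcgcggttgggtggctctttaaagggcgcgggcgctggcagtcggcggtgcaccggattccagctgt

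In Ccnd3, 1 of its 2 windows (chr17:47593217-47593516) held a single CCAAT, and the Cdc6 window held 0. The start sites of that Ccnd3 window, the Cdc6 window and the Mxd1 window lay inside the RefSeq spans of their genes. The other spellings were found in 0 of the 6 windows; over all windows their shares were 7.15% for the E-box, 0.849% for TTTCGCG, 1.56% for TTTGGCG and 17.9% for TTTGAA. These matches describe letters in a window. Only the spellings named above were searched, so a window without a match can still hold another form of a site. Binding was not measured.

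Both subunit genes of ribonucleotide reductase fell. Rrm2, the gene of the small subunit, whose level rises in S phase, lies on chromosome 12 at 24708254 to 24714146 (plus strand). Control replicates gave 125, 128 and 144 TPM and OA replicates 110.4, 110.2 and 96.8 TPM, in order of their numbers. Its lowest control library was 14.8 TPM above its highest OA library, with control replicate 3 highest and OA replicate 3 lowest. That gap was smaller than the range in control (18.8 TPM) and larger than that in OA (13.6 TPM). The means were 132 ± 10.2 and 106 ± 7.79 TPM (SD, n = 3 per group), a log2 fold change of −0.32 (SE 0.0864, adjusted p = 0.0303, limma).

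Rrm1, the gene of the large catalytic subunit, lies on chromosome 7 at 102441695 to 102469771 (plus strand). Its level was 95.9, 100.02 and 105 TPM across the controls and 91.3, 89.45 and 87.1 TPM across the OA group. Its OA libraries were the tightest of the 6 genes, with an SD of 2.34% of the mean. Its log2 fold change of −0.17 (SE 0.0554, adjusted p = 0.0411, limma) was the smallest of the 6.

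The ratio of Rrm2 to Rrm1 TPM was 1.31, 1.28 and 1.36 in the control libraries and 1.21, 1.23 and 1.11 in the OA libraries. The groups did not overlap, and Rrm2 remained the more abundant transcript per length in every library. The mean log2 ratio was 0.40 ± 0.0489 in control and 0.24 ± 0.0792 in OA (SD, n = 3 per group), a difference of −0.15 (p = 0.1, exact permutation test, two-sided; adjusted p = 0.3 over 3 ratios). That p is the smallest the design allows, so the ratio could not pass the threshold. Without replicate 3 of both groups the difference was −0.081.

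**Figure D2:**
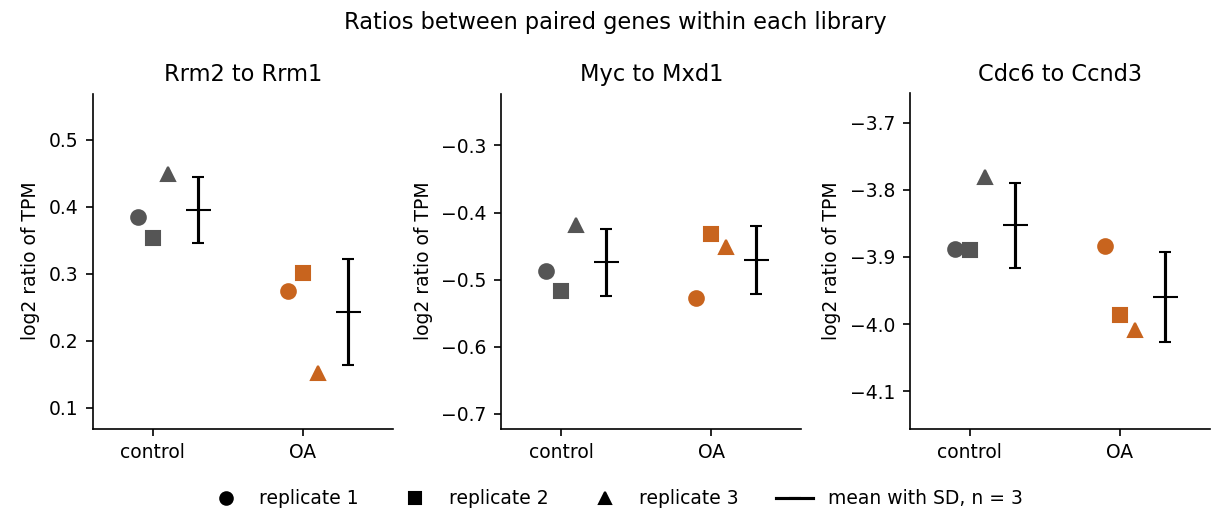
Log2 ratios of TPM within each library for Rrm2 to Rrm1, Myc to Mxd1 and Cdc6 to Ccnd3, with symbols for the replicate number and the group mean with SD (n = 3); the vertical axes do not start at 0 and all span the same log2 distance. The control and OA libraries are apart for Rrm2 to Rrm1 (means 0.40 and 0.24) and overlap for the other two ratios.

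Cdc6, the gene of the origin licensing factor, lies on chromosome 11 at 98907709 to 98923942 (plus strand) and was the least abundant of the 6. Its controls held 29.6, 29.3 and 32.35 TPM and its OA libraries 26.7, 24.6 and 21.4 TPM. Its gap between the groups was 2.58 TPM, smaller than the range within either group (3.06 TPM in control and 5.30 TPM in OA). The means were 30.4 ± 1.69 and 24.25 ± 2.67 TPM (SD, n = 3 per group), a log2 fold change of −0.32 (SE 0.0955, adjusted p = 0.0339, limma).

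Ccnd3, the gene of cyclin D3, lies on chromosome 17 at 47505051 to 47599689 (plus strand) and was the most abundant of the 6. Its level was 438, 434 and 444 TPM in control and 394, 390.5 and 345 TPM in OA, in replicate order. The controls varied little, with an SD of 1.18% of the mean against 7.34% in OA. A gap of 40.0 TPM separated the groups, larger than the range in control (10.3 TPM) but smaller than that in OA (49.6 TPM). The means were 439 ± 5.20 and 376 ± 27.6 TPM (SD, n = 3 per group), a log2 fold change of −0.22 (SE 0.068, adjusted p = 0.0348, limma). In GENCODE M21 its exons share 361 bases with exons of Bysl on the opposite strand. Whether the libraries kept strand is not given in the sources used here, so reads from this stretch could belong to either gene; Bysl was not listed.

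The fall was larger in Cdc6 than in Ccnd3 by value, but the difference between them lay within the spread of the libraries. The ratio of Cdc6 to Ccnd3 TPM was 0.0675, 0.0675 and 0.0728 in the control libraries and 0.0678, 0.0631 and 0.0621 in the OA libraries, and OA replicate 1 lay within the control range. The difference in mean log2 ratio was −0.11 (p = 0.3, exact permutation test, two-sided; adjusted p = 0.45 over 3 ratios). It was −0.070 without control replicate 3 and −0.046 without replicate 3 of both groups.

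By level, the order Ccnd3, Mxd1, Rrm2, then Myc and Rrm1, then Cdc6 held in all 6 libraries. Myc and Rrm1 changed places between libraries, with differences between −7.70 and 2.66 TPM, and could not be ranked. Mxd1 and Rrm2 lay only 0.63 TPM apart in control replicate 3. Ccnd3 stood 13.7 to 16.1 times as high as Cdc6 per length. In mean level the members ranked between 77 (Ccnd3) and 396 (Cdc6) of the 559 listed genes.

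The falls were modest within the table. Among the 272 genes with a log2 fold change below 0, Rrm2 and Cdc6 ranked 118 and 119 by size of fall, Mxd1, Myc and Ccnd3 193, 197 and 198, and Rrm1 249. The median over those 272 genes was −0.29, and over the 6 members −0.23. In the authors' deposited table the log2 fold changes were −0.22 for Myc, −0.22 for Mxd1, −0.16 for Rrm1, −0.32 for Rrm2, −0.32 for Cdc6 and −0.23 for Ccnd3. The authors' deposited table gives Ccnd3 and Rrm2 the smallest Q values of the 6, at 0.000821 and 0.00104. In that authors' deposited table Myc (Q = 0.0423) and Cdc6 (Q = 0.0477) lay near the largest listed Q of 0.0499.

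The libraries numbered 3 carried much of the difference. Control replicate 3 was the highest control and OA replicate 3 the lowest OA library in 6 of the 6 members. The same held for 237 of the 272 genes lower in OA, or 87.1%, so the members followed the table in this. With that order, leaving out both libraries numbered 3 was bound to shrink each member's fall. Without replicate 3 of both groups the log2 fold changes were −0.12 for Myc, −0.14 for Mxd1, −0.12 for Rrm1, −0.20 for Rrm2, −0.19 for Cdc6 and −0.15 for Ccnd3, and limma called Myc, Rrm2, Cdc6 and Ccnd3 lower, with 191 of the 559 genes. The 3 members called without OA replicate 3 alone were Rrm2, Cdc6 and Ccnd3, with 138 of the 559 genes.

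**Figure D3:**
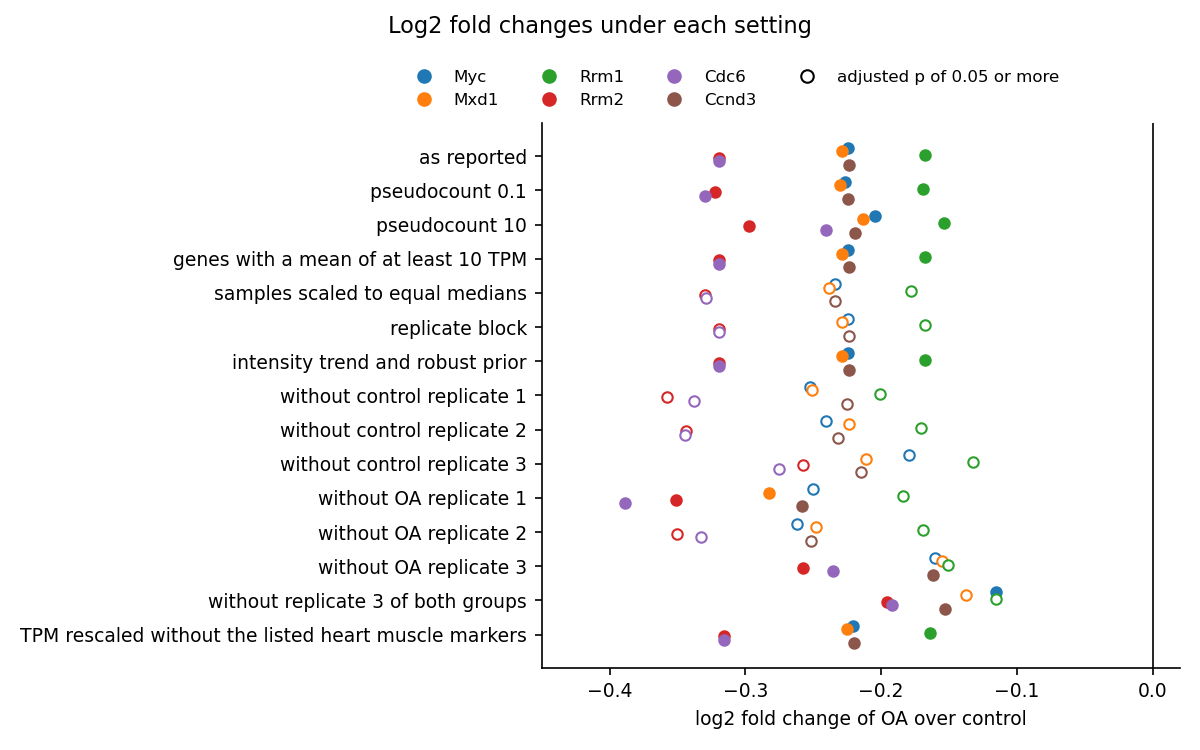
Log2 fold change of OA over control for each of the 6 genes (colours), as reported and under each other setting but the stricter threshold. Open points have an adjusted p of 0.05 or more in limma. The stricter threshold, an adjusted p under 0.01, leaves the fold changes as reported, and 0 members passed it. Every point lies below 0, which most of these settings could not have changed. Leaving out replicate 3 of both groups was bound to move the points towards 0 (Rrm2 from −0.32 to −0.20).

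Other genes of the same pathways were taken from 7 lists with 237 distinct symbols, of which 20 were listed, the 6 members included. Of these 20, 16 fell, 0 rose and 4 did not pass, against 40.1% called lower in the whole table. By sign 20 of 20 were lower, against 48.7% of the table, and their median log2 fold change was −0.22 against 0.14 for all 559 genes. Leaving out the members, 10 of 14 fell and 4 did not pass. By sign 14 of those 14 were lower, with a median of −0.20. All 559 genes had passed the authors' test, so their median mixes falls and rises and does not mark no change. Of the 20, limma called 0 when control replicate 1, control replicate 2 or OA replicate 2 was left out (11, 8 and 9 at an unadjusted p under 0.05), where the whole table had 0, 13 and 0 genes called lower. It called 1 without control replicate 3 (30 in the table), 5 without OA replicate 3 (138), 8 without replicate 3 of both groups (191), 9 without OA replicate 1 (187), and 2 with the libraries scaled to equal medians (82).

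**Figure D4:**
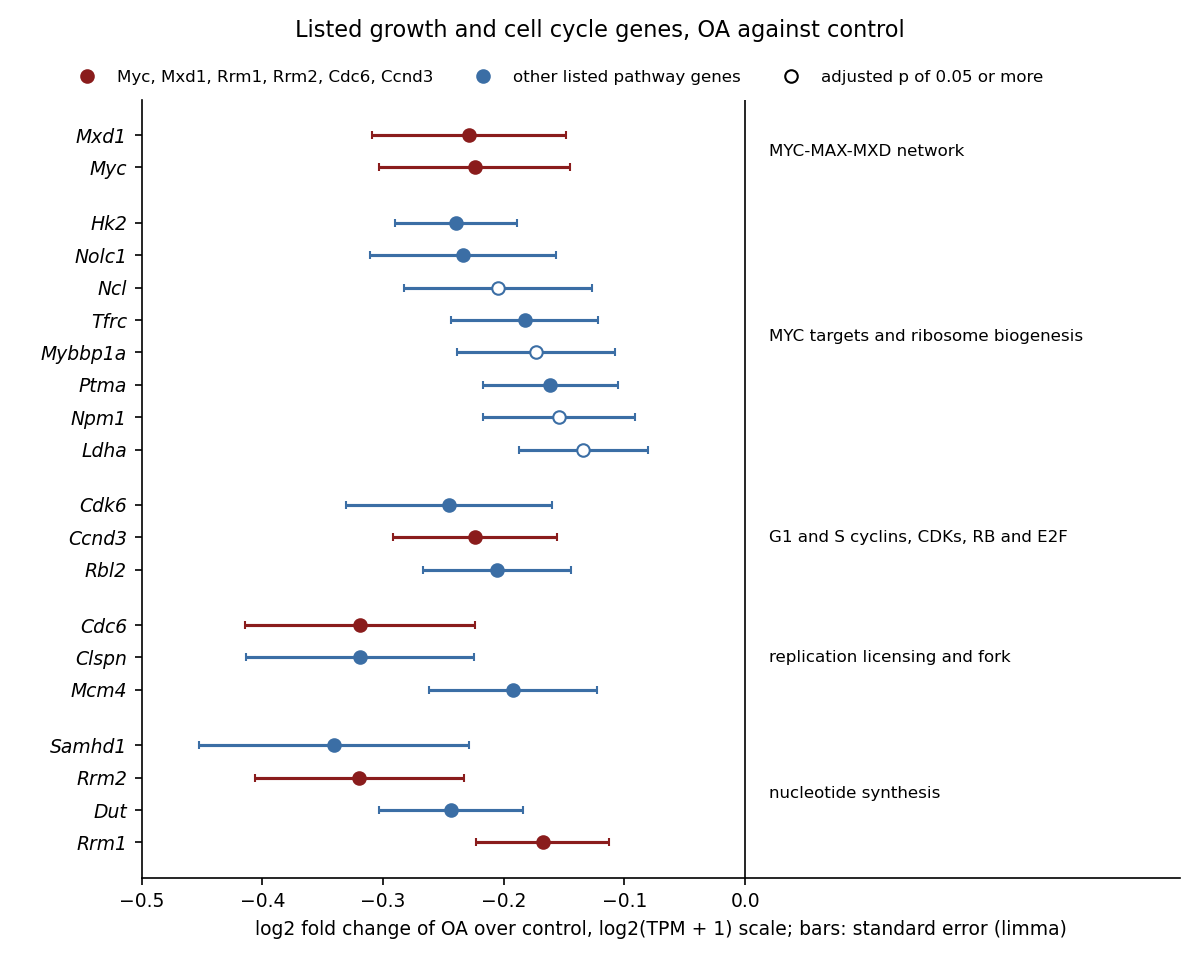
Log2 fold change of OA over control (log2(TPM + 1) scale) with its standard error from limma for the 20 listed genes of the pathway lists, grouped by list; open points have an adjusted p of 0.05 or more. All 20 lie below 0, from −0.34 (Samhd1) to −0.13 (Ldha).

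Within the MYC-MAX-MXD network, Myc and Mxd1 were the 2 listed genes of 13, and both fell. Of 55 MYC targets and ribosome biogenesis genes 8 were listed, of which 4 fell and 4 did not pass. Hk2, the gene of a glucose-phosphorylating enzyme, averaged 86.2 ± 2.88 TPM in control and 72.9 ± 1.88 TPM in OA (SD, n = 3 per group), and fell (log2 −0.24, adjusted p = 0.026, limma). Nolc1, the gene of a nucleolar phosphoprotein, fell to 84.8% of the control level, Tfrc, the transferrin receptor gene, to 87.9% and Ptma, the prothymosin alpha gene, to 89.4%. The nucleolar protein genes Ncl, Npm1 and Mybbp1a and the lactate dehydrogenase gene Ldha did not pass, with log2 fold changes of −0.20, −0.15, −0.17 and −0.13 and adjusted p between 0.0533 and 0.0637 (limma).

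Of 25 G1 and S phase cyclin, CDK, RB and E2F genes 3 were listed, and all 3 fell. Beside Ccnd3 they were Cdk6, the gene of a kinase that cyclin D3 activates, and Rbl2, the gene of the pocket protein p130, which represses E2F targets. Cdk6 measured 61.9, 61.4 and 62.7 TPM in control and 57.5, 52.9 and 46.6 TPM in OA, so that, as for Ccnd3, the controls were tight and OA replicate 3 was lowest. Rbl2 fell to 86.6% of the control level. None of the 7 CDK inhibitor genes was listed.

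Of 47 replication licensing and fork genes 3 were listed, and all 3 fell. Clspn, the gene of the checkpoint adaptor claspin, measured 20.6, 19.9 and 22.6 TPM in control and 16.8, 18.4 and 14.9 TPM in OA, with the same log2 fold change as Cdc6 (−0.32). Mcm4, the gene of a subunit of the helicase that CDC6 helps to load, fell to 87.4% of the control level.

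Of 48 nucleotide synthesis genes 4 were listed, and all 4 fell. Beside Rrm1 and Rrm2, Dut, the gene of the enzyme that removes dUTP, fell to 84.1% of the control level (62.1 ± 3.73 TPM in control, 52.2 ± 0.376 TPM in OA; SD, n = 3 per group). Samhd1 encodes an enzyme that breaks deoxyribonucleotides down, the opposite of what ribonucleotide reductase does, and is on the list as a gene of nucleotide balance. It fell to 78.9% of the control level (log2 −0.34, SE 0.112, adjusted p = 0.0407, limma). The lists thus hold Mxd1, Rbl2 and Samhd1, which are known to oppose growth or nucleotide supply, beside genes that promote them. None of the 43 genes of G2 and mitosis was listed, which does not mean that they were unchanged.

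For each member, the 3 genes with the closest pattern over the 6 libraries were found in the table. Likeness was the root mean square difference of log2(TPM + 1) profiles, each centred on its own mean, over 548 other named genes; the profiles share the same libraries and the same step between groups. Closest to Myc were Kit (0.00983), Serpinb9 (0.0157) and Xdh (0.0182), against a median of 0.225. Closest to Mxd1 were Padi2, Fmnl1 and Usp12 (0.0133 to 0.0214), and to Ccnd3 Pik3cd, Chsy1 and Arl4c (0.0194 to 0.0224). Closest to Rrm2 were Il12rb1, Gem and Arid5a (0.0191 to 0.0227), and to Cdc6 Tnfrsf9, Glipr2 and S100a6 (0.00732 to 0.0183). For Rrm1 they were Tfrc and Ptma, both of the MYC target list, and Psme2 (0.0182 to 0.0232). Among the members themselves Mxd1 and Ccnd3 were the closest pair (0.0292) and Rrm1 and Cdc6 the farthest (0.106).

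Markers of several cell types moved with the members. In bulk RNA, fewer cells of a type and less RNA per cell cannot be told apart. Of 13 NK cell markers 10 were listed, among them Ncr1, Klrk1 and Eomes. In a table where 40.1% of genes were called lower, 10 of these 10 fell, with a median log2 fold change of −0.40. Klrb1c, Tbx21 and Itga2 were not listed. The summed level of the listed markers was 4306 to 5145 TPM in control and 2825 to 3629 TPM in OA. OA replicate 3 was lowest at 61.3% of the control mean, where Myc stood at 78.1% and Cdc6 at 70.4%. Gzmb, Il2rb, Gzma and Nkg7 made up most of that sum, with control means of 1551, 966, 861 and 579 TPM. Ncr1, Klrk1 and Eomes averaged 131, 155 and 45.6 TPM in control, so the sum says little about them. Both listed T cell markers, of 12, also fell (Cd28 and Icos, 259 to 291 TPM in control and 194 to 239.7 TPM in OA), while Cd3e, Cd3d and Cd3g were not listed.

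Most listed markers of other blood cells rose with OA, in a table where 36.0% of genes were called higher. Of 21 monocyte, macrophage and dendritic cell markers 8 were listed, of which 7 rose and 1, Ly6c2, fell (log2 −0.62). Their sums were 4514 to 5039 TPM in control and 5650 to 5960 TPM in OA. Il1b, a cytokine gene, made up most of these sums, with means of 3246 TPM in control and 3850 TPM in OA. The sums therefore largely follow that gene. Of 14 B cell and plasma cell markers 6 were listed, of which 5 rose and 1 did not pass, from 323 to 403 TPM in control to between 503 and 592 TPM in OA. Of 15 neutrophil, mast cell and basophil markers 4 were listed, of which 3 rose and 1 fell (587 to 700.3 TPM in control, 799 to 860.4 TPM in OA). Mmp8, Mmp9 and Il6 rose, and Mcpt8 fell (log2 −0.43, adjusted p = 0.026, limma). Mmp8 made up most of the sum, with means of 408 TPM in control and 575 TPM in OA, so the sum does not describe each of these cell types. Of 12 erythroid and megakaryocyte markers 2 were listed, of which 1 rose and 1 did not pass (574 to 647 TPM in control, 691 to 754 TPM in OA). Ppbp, which did not pass, made up most of this sum, with means of 582 TPM in control and 675 TPM in OA. Hbb-bt, which rose, averaged 39.4 and 56.6 TPM. In these 4 lists 0 listed markers stood at 0 in all libraries. The part of the cell mixture in the falls of the 6 members was not tested.

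Heart muscle markers stood apart in the OA group. The 16 listed of 25 summed to 37.1 to 62.2 TPM in control and to 53.7, 529 and 7186 TPM in OA replicates 1, 2 and 3, or 0.719% of the scale in OA replicate 3, and 16 of 16 did not pass limma. With these markers removed and the libraries rescaled, 6 of 6 members were called lower, as were 234 of the 543 genes then tested. The log2 fold changes were −0.22 for Myc and −0.32 for Rrm2. The listed genes as a whole summed to between 121857 and 126392 TPM per library. The depth behind these values is unknown, since TPM holds no count of reads.

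**Figure D5:**
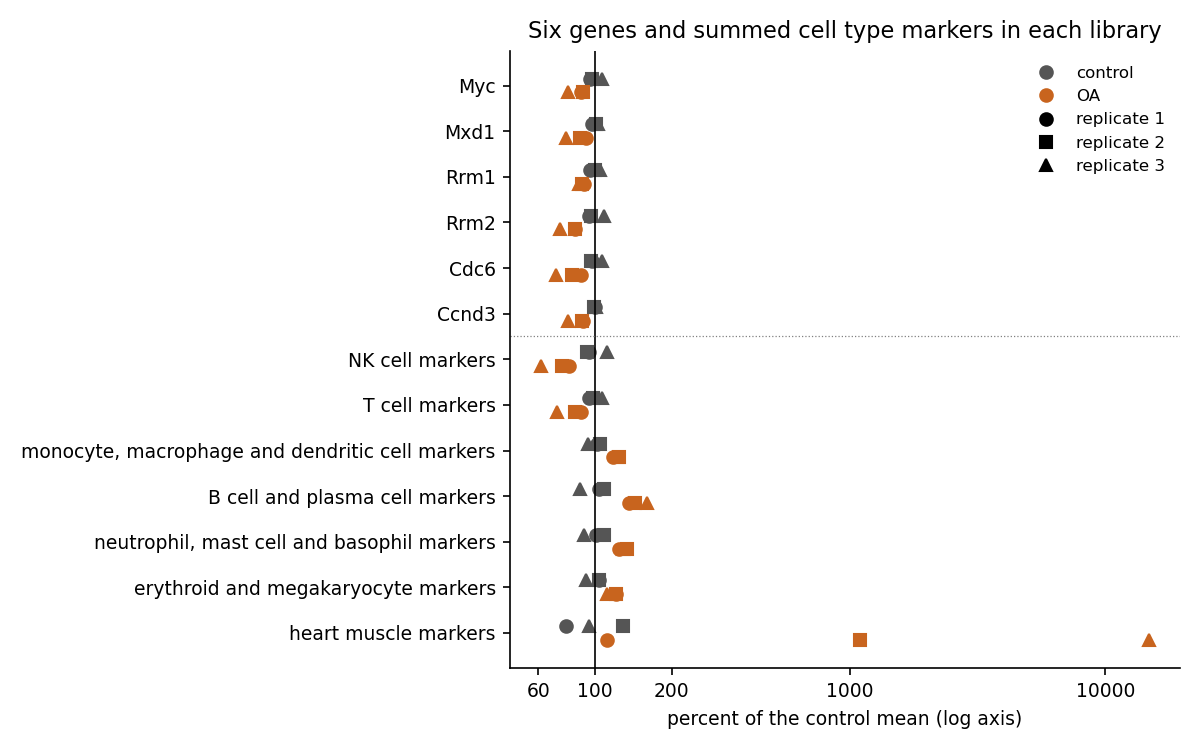
Level of each of the 6 genes and summed level of the listed markers of each cell type in every library, as a percent of the control mean on a log axis, with colours for the group and symbols for the replicate number. The 6 genes, the NK cell markers and the T cell markers lie below 100 in the OA libraries, the other marker sums lie above it, and the heart muscle markers reach 14865% in OA replicate 3.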

How the data were processed

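One table of 559 genes was analysed. Its TPM values per library and mean TPM per group were computed by the authors, per the file headers. Its log2 fold changes, P values and Q values are likewise the authors', per the file headers. The submitters' processing notes name Bowtie2, RSEM 1.3.1, DESeq2 1.4.5 and mm10 and state no order; the annotation, and any filter, is not given in the sources used here. Members and lists were chosen with earlier results of these data known.

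The treatment label set each library's group, and sample titles matched columns to libraries. No pair of libraries was identical (equal TPM for at most 14 genes). limma 3.58.1 (R 4.3.3) was fitted on log2(TPM + 1) over all 559 genes, both groups, without filter or covariate, two-sided, with Benjamini-Hochberg adjustment over the table. This scale understates the change of low genes, and TPM, being a share, shifts when other transcripts change. Ratios were compared by an exact permutation test over libraries. Named genes were the members, listed genes of the pathway lists and, for each member, the 3 named genes with the most similar profile. One gene of the pathway lists is not reported here and is left out of their counts. Alternatives were other pseudocounts, a level filter, equal medians, a replicate block, another limma prior, a stricter threshold and leaving out libraries. Rescaling without heart muscle markers, and the settings for the pathway lists, were added after the data were seen. Tables and plots were made with pandas 2.3.3, numpy 2.4.6, scipy 1.17.1 and matplotlib 3.10.9 in Python 3.11.15.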

Additional observations from a re-analysis of the deposited data

How the results depend on the processing

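All 90 log2 fold changes of the 6 members under 15 alternatives were below 0; 41 were called lower and 49 were not called. No listed gene whose groups do not overlap can change sign by leaving out libraries or by another pseudocount. The level filter, the replicate block, the other limma prior and the stricter threshold leave each fold change as reported. For the members, only equal medians and the rescaling without heart muscle markers could have changed a sign. The shared sign was thus mostly fixed in advance. With equal medians 82 of the 559 genes and 0 members were called lower, and 2 pathway genes; at an adjusted p under 0.01, 0 genes were called higher, 1 lower, 0 members and 0 pathway genes. With the replicate number as a block (replicate block), limma called 0 genes higher (149 at an unadjusted p under 0.05), 0 lower (89), 0 members (0) and 0 pathway genes (2). The numbers were not taken to pair the libraries: the deviations of same-numbered libraries from their group means correlated at 0.33, −0.11 and −0.081 over 559 genes. Leaving out one library gave 0 to 177 genes called higher, 0 to 187 lower, 0 to 4 members and 0 to 9 pathway genes; 8 pathway genes were called without replicate 3 of both groups. The Myc to Mxd1 difference (0.0039 in log2) changed sign without control replicate 1 (−0.0025), control replicate 2 (−0.017), OA replicate 2 (−0.015) and OA replicate 3 (−0.0058), and its leave-one-out values ran from −0.017 to 0.033. The cause of these changes was not tested. Depth is unknown from TPM.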
